A study of Mus musculus with 14 samples.

Results

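The genes Cd93, Ttc4, Hnmt and Rasa4 were described together because their signal had been lower in Dnmt1 knockout than in control arrays of sorted mouse bone marrow cells. They are 4 of 12393 genes with a probe set of 1 symbol on the array, and they were measured by 6 of its 22690 probe sets. The members were chosen from the knockout comparison itself, so their knockout values are given as a description with no test. The arrays, 14 in all, form 6 groups. Every mouse was homozygous for floxed Dnmt1 (Dnmt1fl/fl) on the C57BL/6 background and 8 to 12 weeks old. Knockout mice carried Mx-Cre in addition, a transgene that makes Cre recombinase in many cell types, blood cells among them, when interferon is induced. Control littermates lacked it. Both genotypes received poly(I)poly(C), which induces interferon, in 7 injections at 25 ug/kg, and marrow was collected 4 days after the last. Each sample pooled 4 to 6 mice of 1 genotype. Lineage-depleted cells were sorted by Kit, Sca-1 and CD34. Kit+ Sca-1+ cells were split into long-term hematopoietic stem cells without CD34 (LT-HSC) and multipotent progenitors with it (MPP), while Kit+ cells without Sca-1 were called myeloid progenitors. There were 3 arrays of myeloid progenitors for each genotype and 2 of each other population. Equally numbered control and knockout arrays came from littermates, which gave 7 pairs.

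The 4 proteins have unrelated roles. Cd93 is a membrane glycoprotein of the group XIV C-type lectins, first described as a complement C1q receptor. It is found on early hematopoietic and early B cell progenitors, on monocytes and on endothelium. Ttc4 carries tetratricopeptide repeats and works with the chaperones Hsp90 and Hsp70. Hnmt inactivates histamine inside cells by moving a methyl group onto it from S-adenosylmethionine. Rasa4 is a calcium-responsive GTPase activating protein that switches Ras off. Dnmt1, the deleted enzyme, copies DNA methylation at CpG sites onto newly made strands, and methylation of CpG-rich promoters is known to accompany silent genes.

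Promoter sequences are shown because Dnmt1 acts on CpG sites, and the members differ in how many they have upstream of their start. They come from the RefSeq promoter table of assembly GRCm38.p6, which held 4 windows for 3 of the 4 members, and no entry for Cd93. The 250 bases before a start are printed on the gene's own strand, with each CpG in capitals. Hnmt lies on chromosome 2 (chr2:24049380-24049629, minus strand), Ttc4 on chromosome 4 (chr4:106678945-106679194, minus strand, the more upstream of its 2 starts) and Rasa4 on chromosome 5 (chr5:136083666-136083915, plus strand).
Hnmt: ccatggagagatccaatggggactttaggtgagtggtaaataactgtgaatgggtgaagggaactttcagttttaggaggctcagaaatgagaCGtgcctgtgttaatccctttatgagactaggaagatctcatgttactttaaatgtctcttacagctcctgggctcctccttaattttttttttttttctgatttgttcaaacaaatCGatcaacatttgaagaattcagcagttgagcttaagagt
Ttc4: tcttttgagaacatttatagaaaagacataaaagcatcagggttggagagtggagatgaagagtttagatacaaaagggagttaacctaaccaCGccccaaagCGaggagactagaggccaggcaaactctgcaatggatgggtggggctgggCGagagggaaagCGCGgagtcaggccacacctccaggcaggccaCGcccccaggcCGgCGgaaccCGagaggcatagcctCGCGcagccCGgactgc
Rasa4: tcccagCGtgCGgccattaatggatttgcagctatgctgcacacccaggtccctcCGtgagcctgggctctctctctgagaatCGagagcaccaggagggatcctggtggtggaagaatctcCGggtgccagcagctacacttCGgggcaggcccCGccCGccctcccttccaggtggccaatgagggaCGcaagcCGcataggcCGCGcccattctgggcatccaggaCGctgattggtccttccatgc

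Hnmt was CpG-poor, with 2 CpG and 38.8% G or C, and 81.2% of the 32851 windows of all genes held at least as many CpG. Ttc4 held 12 CpG at 56.8% G or C, and 33.5% of windows held as many or more. The window of its other start, which is not printed, held 21 CpG at 64.4% G or C (16.3% of windows). Rasa4 held 13 CpG at 63.2% G or C, and 31.5% of windows held as many or more. The median window had 6 CpG and 52.4% G or C, so Hnmt lay below it and the other 2 above it on both measures. Motifs were searched on both strands. CCAAT, which 33.8% of windows held, matched 1 time in Hnmt and 2 times in Rasa4. GGGCGG, which contains a CpG and was held by 32.7% of windows, matched 2 times in Rasa4. TATAAA, held by 12.4%, matched 1 time in Ttc4. CANNTG, held by 66.2%, matched 2 times in Hnmt and 1 time in Rasa4. None of these motifs was found in all 3 sequences. The Ttc4 counts depend on the start, since its other window had 1 GGGCGG and 0 TATAAA. DNA methylation was not measured on these arrays.

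The deposited intensities of an array had a median between 41.1 and 49.1 units, and the correlation between arrays inside a group was 0.936 to 0.988. The ratio of the 3' to the 5' Gapdh control, a measure of RNA integrity and amplification, was 5.44 and 5.15 in the arrays of LT-HSC pair 1 and 2.46 to 3.07 in pair 2. It was 2.44 to 2.86 in MPP and 2.25 to 5.27 in myeloid progenitors. The same ratio for the Actb control was 0.754 to 1.18 over the 14 arrays. It did not follow the Gapdh ratio, and was lowest in LT-HSC pair 1 (0.808 in the control and 0.754 in the knockout). The sorting gene Kit lay between 177.94 and 883.07 units, above the 40th percentile on all 14 arrays, and was at -0.42 ± 0.21 on average in knockouts (adjusted p = 0.862, lower in 6 of 7 pairs). Of 12 tested markers of the sorted progenitors 0 passed, and 7 were below 0. Those with the largest differences were Gata1 and Klf1, erythroid transcription factors, at 1.00 ± 0.28 (adjusted p = 0.349, lower in 2 of 7 pairs) and 0.97 ± 0.35 (adjusted p = 0.599, and 0.0289 with pairs as blocks), and the cytokine receptor Flt3, at -0.79 ± 0.38 (adjusted p = 0.846). These 3 were picked after their values were seen. The part of these markers and ratios in the results was not tested. Cd34 was lower in control LT-HSC than in control MPP by a log2 difference of -4.17 (limma adjusted p = 0.00369), as the gate requires. In this comparison 10 of the 12 tested sorted progenitor markers were below 0 (median -2.08). Of the 12, 5 passed as lower and 1, Klf1, as higher, against 2.33% of all genes. Procr lay at 59.28 to 232.05 units in control LT-HSC and 250.77 to 749.46 in control MPP. Hlf lay at 128.1 to 406.1 units in control LT-HSC and 447.95 to 1154.69 in control MPP. The gate gene Ly6a (Sca-1) had no probe set of 1 symbol. Markers of B cell progenitors had summed intensities of 18102.4 and 10264.3 in control LT-HSC, 12113.2 and 8886.41 in knockout LT-HSC, and at most 4618.68 on any other array. Dnmt1 itself ran from 1327.94 to 2219.11 units in controls and from 744.82 to 1305.3 units in knockouts. It was lower on the knockout array of 7 of 7 pairs. The labels do not place its probe sets relative to the deleted part.

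Cd93 was above the 40th percentile of its array on all 14 arrays and was lower in knockout cells of every population. In LT-HSC its probe set 1419589_at gave 870.55 and 325.57 units in controls 1 and 2 and 279.52 and 229.21 units in knockouts 1 and 2. In MPP it gave 791.81 and 667.71 units in controls and 374.41 and 197.62 units in knockouts. In myeloid progenitors the controls were at 912.20, 896.53 and 522.30 units and the knockouts at 583.94, 330.20 and 412.27 units. The groups did not overlap in LT-HSC or MPP, whereas in myeloid progenitors knockout 1 lay above control 3. After normalization, all knockouts lay below all controls for 12.1% of all tested genes in LT-HSC and 12.7% in MPP. On the log2(intensity + 16) scale, after quantile normalization, the average of the 3 knockout minus control differences was -1.02 ± 0.26 (SE), or 2.03-fold lower. By population it was -1.02 ± 0.48 in LT-HSC (n = 2 per genotype), -1.34 ± 0.48 in MPP (n = 2) and -0.71 ± 0.39 in myeloid progenitors (n = 3). The LT-HSC value rested on control 1, and was -0.25 without it and -1.80 without control 2. Control 1 was also the array with the largest sum of B cell progenitor markers, a cell type that expresses Cd93. That sum was lower in the knockout of both LT-HSC pairs, and 10 of 11 of these markers were below 0 in LT-HSC with a median of -0.50. At an unadjusted limma p under 0.05 3 of them were lower, against 6.61% of all genes in either direction, and none passed after adjustment. The part of these markers in the result was not tested. In MPP and myeloid progenitors, where Cd93 was also lower, that sum ran from 1943.33 to 3113.51 in controls and from 1791.66 to 4618.68 in knockouts.

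The other Cd93 probe set, 1449521_at, was dimmer and followed the first with r of 0.90 over the 14 arrays. Its controls ran from 148.87 to 669.88 units with a median of 324.62, and its knockouts from 75.60 to 275.51 units with a median of 115.34. It was lower in 6 of 7 pairs, and myeloid pair 1 differed by 0.04. Its average difference was -1.10 ± 0.34. Markers of the other cells that express Cd93 moved in different directions by population. Summed intensities of 9 monocyte and macrophage markers lay between 553.45 and 938.33 in control LT-HSC and between 827.06 and 1002.16 in knockout LT-HSC. In myeloid progenitors they lay between 4599.7 and 6168.22 in controls and between 4623.96 and 5078.87 in knockouts. In MPP they lay between 1910.11 and 3863 in controls and between 2086.46 and 2515.2 in knockouts. Of these 9 markers 7 were below 0 in MPP (median -0.21), 7 in myeloid progenitors (median -0.06) and 1 in LT-HSC (median 0.14). The 10 endothelial markers summed to less in the knockout of both MPP pairs, at 1657.92 against 1168.84 and 837.09 against 618.94 units, and 6 of 7 tested were below 0 there with a median of -0.33. In LT-HSC their sum was higher in both knockouts, at 768.2 against 787.15 and 1043.62 against 1119.1 units, and in myeloid progenitors it was lower in 2 of 3 pairs, with all 6 arrays between 452.89 and 555.57 units. The part of these markers in the Cd93 result was not tested. In sorted pools fewer cells of a type and less RNA per cell cannot be told apart.

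Ttc4 was dim, and 3 of its 7 knockout values lay below the level at which a probe set was counted as measured, the 40th percentile of its array (19.8 to 26.9 units). Probe set 1451192_a_at gave 51.77 and 89.42 units in control LT-HSC and 10.13 and 34.49 in knockout LT-HSC. Control MPP were at 51.50 and 69.57 units and knockout MPP at 20.64 and 37.16 units. Control myeloid progenitors were at 72.24, 46.86 and 75.11 units and knockouts at 30.06, 19.39 and 52.94 units. Groups did not overlap in LT-HSC or MPP, and in myeloid progenitors knockout 3 lay above control 2. The shares of all genes with knockouts below controls were 12.1% in LT-HSC and 12.7% in MPP after normalization. The average difference was -0.92 ± 0.22, or 1.89-fold lower, with -1.27 ± 0.41 in LT-HSC, -0.81 ± 0.41 in MPP and -0.68 ± 0.33 in myeloid progenitors. All 7 control arrays but only 4 of 7 knockout arrays were above the 40th percentile. The MPP value was -0.49 without knockout 1, the LT-HSC value -0.80 without knockout 1, and the myeloid value -0.44 without knockout 2. The other probe set, 1451193_x_at, may also bind other transcripts. It lay at 4.14 to 32.73 units in controls and 1.07 to 17.76 units in knockouts, above the 40th percentile on 4 control arrays and on 0 knockout arrays. It was lower in 7 of 7 pairs, by only 0.01 in MPP pair 1.

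Hnmt was brighter in control MPP and myeloid progenitors than in control LT-HSC, and lower in the knockout of each. Its probe set 1417702_a_at gave 45.77 and 44.31 units in control LT-HSC and 10.93 and 33.82 in knockout LT-HSC. In MPP the controls were at 135.59 and 80.01 units and the knockouts at 35.26 and 60.34 units. In myeloid progenitors the controls were at 169.64, 90.39 and 144.92 units and the knockouts at 76.58, 73.63 and 67.52 units. No population had overlapping groups, and the knockout myeloid arrays lay close together while their controls spread widely. After normalization, knockouts lay below controls for 12.1% of all genes in LT-HSC, 12.7% in MPP and 3.09% in myeloid progenitors. The average difference was -0.81 ± 0.21, or 1.76-fold lower, with -0.80 ± 0.39 in LT-HSC, -0.95 ± 0.39 in MPP and -0.70 ± 0.31 in myeloid progenitors. Only LT-HSC knockout 1 was under the 40th percentile, and without that array the LT-HSC value was -0.36, against -1.24 without knockout 2. The MPP value was -0.60 without control 1. Summed mast cell and basophil markers, cells that store histamine, lay between 363.61 and 1042.89 units in control LT-HSC and between 597.41 and 983.88 in knockout LT-HSC. In MPP they were higher in knockouts, at 1709.33 and 2487.02 units against 887.16 and 1158.62, the opposite direction to Hnmt. In myeloid progenitors they were lower in knockouts in all 3 pairs, at 1301.9 against 926.7, 1240.77 against 997.81 and 2958.35 against 2319.42 units, the same direction as Hnmt. Their part in the Hnmt result was not tested.

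Rasa4 was dim and lower in knockout cells of every population. Its probe set 1417333_at gave 29.54 and 34.78 units in control LT-HSC and 8.49 and 16.65 in knockout LT-HSC. In MPP it gave 32.08 and 59.16 units in controls and 13.90 and 22.72 in knockouts. In myeloid progenitors the controls were at 56.92, 64.42 and 46.48 units and the knockouts at 34.76, 32.68 and 34.26 units. No population had overlapping groups, where the shares of all genes were 12.1% in LT-HSC, 12.7% in MPP and 3.09% in myeloid progenitors after normalization. The LT-HSC and MPP knockout arrays were under the 40th percentile, so only the 3 myeloid knockout arrays of 7 counted as measured, as did all 7 controls. The average difference was -0.71 ± 0.17, or 1.64-fold lower, with -0.83 ± 0.31 in LT-HSC and in MPP and -0.49 ± 0.26 in myeloid progenitors. The MPP value was -0.47 without control 2. For dim genes the added constant sets much of the size. With 1 in place of 16 the averages were -1.15 for Rasa4, -1.33 for Ttc4 and -1.09 for Hnmt, and with 64 they were -0.34, -0.49 and -0.49.

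**Figure D1:**
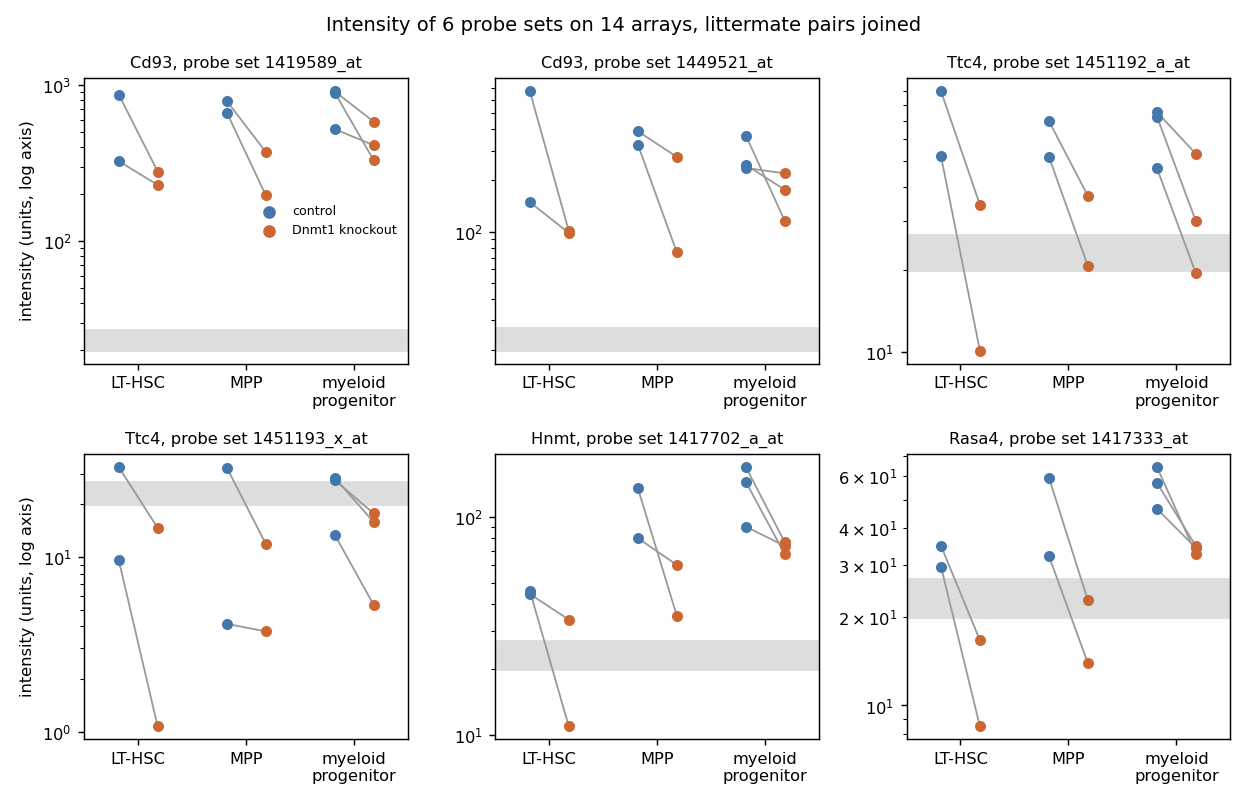
Intensity of the 6 member probe sets on 14 arrays, on a logarithmic axis in units of the deposited table. Points are arrays, lines join littermates, and the grey band spans the 40th percentile of the arrays, 19.8 to 26.9 units. Cd93 lies above the band on every array, whereas Rasa4 falls from above the band in control LT-HSC to below it in knockout LT-HSC.

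Shares of all 8612 genes that passed the filter stand beside the members here, and since the members were chosen for their falls nothing is read from them. A knockout array lower than its littermate in 7 of 7 pairs was found for 2.30% of genes and for all 4 members. On normalized values, all knockout arrays lay below all control arrays for 12.1% of genes in LT-HSC, 12.7% in MPP and 3.09% in myeloid progenitors. All 4 members did so in LT-HSC and in MPP, and Hnmt and Rasa4 in myeloid progenitors. Over the 3 populations together, 2 genes, Aktip and Rdm1, had all 7 normalized knockout values below all 7 control values, which is 0.0232%. No member did, and Dnmt1, whose intensities did not overlap, overlapped after normalization. For the average, 0.232% of genes passed a limma adjusted p of 0.05 as higher and 0.00% as lower. At an unadjusted p of 0.05 the shares were 3.19% higher and 2.87% lower. With littermate pairs as blocks 0.163% passed as lower. Ranked by p among lower genes, Dnmt1 was number 1, Rasa4 3, Ttc4 4, Cd93 9 and Hnmt 11. The other genes among these ranks are not described here.

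Within pairs, the size of the fall varied most for Cd93 and Hnmt and least for Rasa4. The Cd93 difference was -1.58 and -0.47 in LT-HSC pairs 1 and 2, -1.0004 and -1.68 in MPP pairs 1 and 2, and -0.46, -1.38 and -0.27 in myeloid pairs 1 to 3. Hnmt was at -1.33 and -0.27 in LT-HSC, -1.61 and -0.28 in MPP, and -0.93, -0.28 and -0.88 in myeloid progenitors. Its pairs thus split into 4 with a large difference and 3 near -0.28. Mature granulocyte markers also varied between littermates. Their sum was lower in the knockout of LT-HSC pair 1 (536.24 against 192.96 units), MPP pair 1 (2365.21 against 631.59) and myeloid pairs 1 (5112.62 against 1978.86) and 2 (3515 against 1009.67). It was higher in LT-HSC pair 2 (1813.58 against 7073.22), MPP pair 2 (3636.23 against 6730.37) and myeloid pair 3 (11822 against 12364.9). Of the 4 pairs with a large Hnmt difference 3 had the lower sum, and of the other 3 pairs 1 did, and the part of these markers was not tested. Ttc4 was at -1.50 and -1.04 in LT-HSC, -0.97 and -0.66 in MPP, and -0.87, -0.80 and -0.35 in myeloid progenitors. Rasa4 was at -1.01 and -0.64 in LT-HSC, -0.73 and -0.93 in MPP, and -0.49, -0.72 and -0.27 in myeloid progenitors. Standard deviations over the 7 pairs were 0.58 for Cd93, 0.54 for Hnmt, 0.35 for Ttc4 and 0.25 for Rasa4. The pair with the smallest fall was not the same for all members: myeloid pair 3 for Cd93, Ttc4 and Rasa4, and LT-HSC pair 2 for Hnmt. Without LT-HSC pair 1, where both arrays had high Gapdh ratios, the LT-HSC differences were -0.46 for Cd93, -1.05 for Ttc4, -0.27 for Hnmt and -0.65 for Rasa4, and the averages were -0.84, -0.85, -0.64 and -0.66. High Gapdh ratios were also found in myeloid pair 2 (4.30 and 4.35) and in myeloid control 1 (5.27) but not its knockout littermate (2.33). Without myeloid control 1 the myeloid differences were -0.59 for Cd93, -0.58 for Ttc4, -0.51 for Hnmt and -0.45 for Rasa4.

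**Figure D2:**
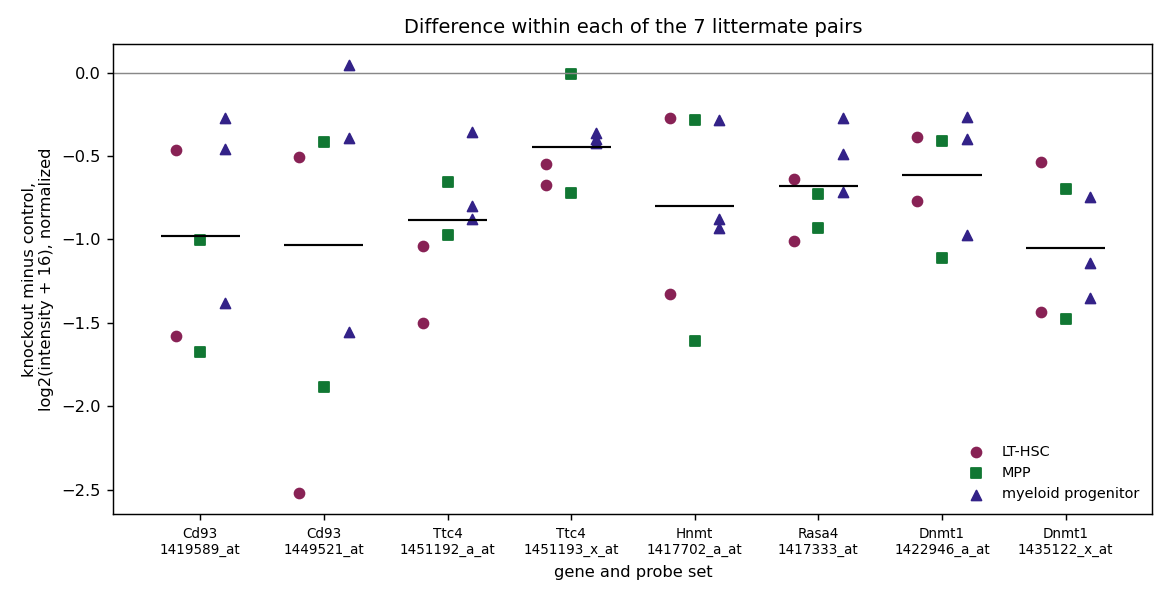
Knockout minus control within each of the 7 littermate pairs, on the normalized log2(intensity + 16) scale, for the 6 member probe sets and both Dnmt1 probe sets. Each point is a pair, with the shape giving the population, and the short line is the mean over pairs. All points but 1, Cd93 probe set 1449521_at in myeloid pair 1, lie below 0.

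The Dnmt1 difference itself varied between pairs. It was -1.11 in MPP pair 2, -0.98 in myeloid pair 2 and -0.77 in LT-HSC pair 1, and between -0.41 and -0.26 in the other 4 pairs. The same 3 pairs had the largest Cd93 differences, -1.68, -1.38 and -1.58, against -1.0004 to -0.27 in the other 4. The second Cd93 probe set was at -1.88, -1.55 and -2.52 in these pairs and between -0.51 and 0.04 in the others. Rasa4 was at -0.93, -0.72 and -1.01 in them and between -0.73 and -0.27 in the others. Hnmt did not follow this order, with -0.28, -0.28 and -1.33 in them and -1.61 to -0.27 in the others. Ttc4 was at -0.66, -0.80 and -1.50 in them and between -1.04 and -0.35 in the others. On the other Dnmt1 probe set, which may also bind other transcripts, the same pairs were lowest, at -1.48, -1.35 and -1.43 against -1.14 to -0.54. This arrangement was noticed after the values were seen, both genes were read from the same arrays, and the pairs formed 2 separate ranges of the Dnmt1 difference, so no correlation is given and the relation was not tested.

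**Figure D3:**
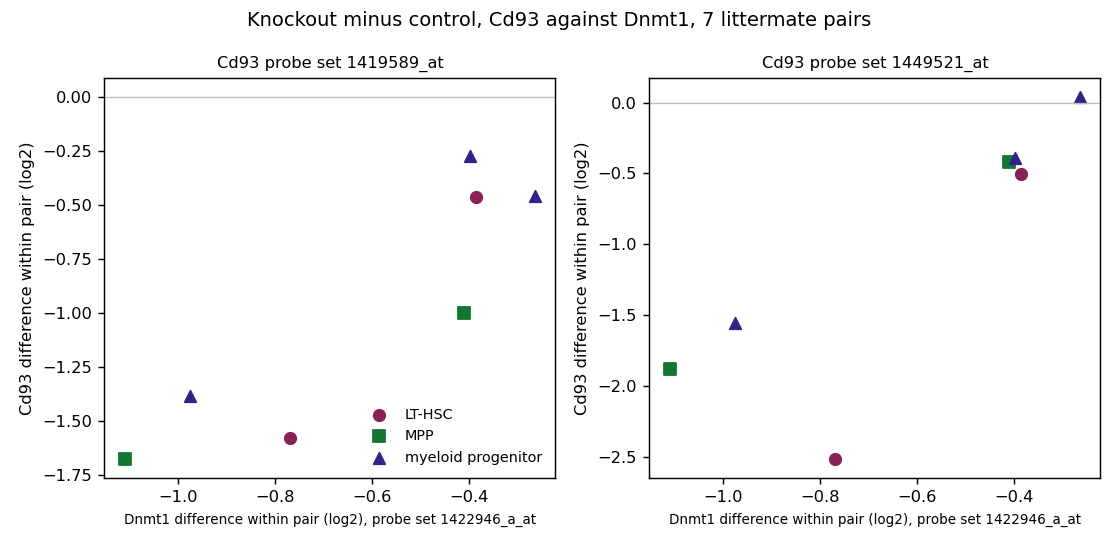
Cd93 difference against Dnmt1 difference within each of the 7 pairs, both knockout minus control in log2 units, for both Cd93 probe sets. Points are pairs, with the shape giving the population. The 3 pairs with Dnmt1 differences of -1.11 to -0.77 lie lowest for Cd93, and the other 4 lie at -1.0004 or above.

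Whether the falls differed between populations was tested as an interaction in the same limma fit. The members were chosen as consistent falls on these same arrays, a choice that favours similar falls in each population. Nothing is therefore read from interactions that did not pass. The largest difference for Cd93 was between MPP and myeloid progenitors, -0.63 ± 0.61 (95% interval -1.96 to 0.69). For Ttc4 it was between LT-HSC and myeloid progenitors, -0.59 ± 0.52 (-1.72 to 0.54). Hnmt differed by at most -0.25 ± 0.50 (-1.32 to 0.82), between MPP and myeloid progenitors, and Rasa4 by -0.34 ± 0.41 (-1.21 to 0.54) in the same comparison. None of the 12 member interactions passed (adjusted p of 0.999 or higher, and 0.715 or higher with pairs as blocks). The intervals span differences as large as the falls themselves. Across all genes 0.00% passed in each of the 3 interactions. Unadjusted p-values under 0.05 were found for 3.02% (LT-HSC against MPP), 2.65% (LT-HSC against myeloid progenitors) and 0.488% (MPP against myeloid progenitors).

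The choice of members did not compare control populations with each other, although the same control arrays entered that choice. These controls had also received poly(I)poly(C). All 11 tested B cell progenitor markers were higher in control LT-HSC than in control MPP (median 4.11). Of these 9 passed, against 2.33% of all genes, so the levels are those of the sorted pools. Mean control intensities of Cd93 were 598 ± 385 (SD, n = 2) in LT-HSC, 730 ± 87.8 (n = 2) in MPP and 777 ± 221 (n = 3) in myeloid progenitors, and neighbours in this order did not differ beyond their spread. Its log2 difference between LT-HSC and MPP was -0.41 ± 0.48 (adjusted p = 0.724) and turned to 0.37 without LT-HSC control 2. The other Cd93 probe set, 1449521_at, had the reverse order, at 409 ± 368, 357 ± 46.2 and 284 ± 72.9 units. Its differences did not pass either in a limma fit of all probe sets (adjusted p of 0.865 or higher). Ttc4 was at 60.5 ± 12.8 units in MPP, 64.7 ± 15.5 in myeloid progenitors and 70.6 ± 26.6 in LT-HSC, again within the spread. Rasa4 lay in the order LT-HSC, MPP, myeloid progenitors, at 32.2 ± 3.71, 45.6 ± 19.1 and 55.9 ± 9.01 units. Its LT-HSC value was lower than the myeloid value by a log2 difference of -0.58 ± 0.29 (adjusted p = 0.280), which did not pass. Hnmt followed the same order, at 45.0 ± 1.03, 108 ± 39.3 and 135 ± 40.5 units.

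Hnmt in LT-HSC was 2.36-fold below its level in myeloid progenitors, a log2 difference of -1.24 ± 0.35 that just missed the threshold (adjusted p = 0.0534, 95% interval -2.00 to -0.48). The adjusted p ran from 0.0322 to 0.201 over 21 alternatives and passed in 10, among them leaving out MPP control 1 (0.0499) or 2 (0.0498), LT-HSC knockout 1 (0.0322) or 2 (0.0328) or myeloid control 2 (0.0408), while it was 0.201 without myeloid control 1. Against MPP the LT-HSC difference was -0.96 ± 0.39 (adjusted p = 0.254). Between MPP and myeloid progenitors the 4 members differed by -0.33 to -0.01 (adjusted p of 0.829 or higher). None of the 12 member comparisons passed. Over all genes 2.33% passed between LT-HSC and MPP, 6.44% between LT-HSC and myeloid progenitors and 0.0813% between MPP and myeloid progenitors. The unadjusted shares were 15.4%, 20.0% and 8.93%.

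Over the 14 arrays the members followed each other, with r of 0.80 between Hnmt and Rasa4, 0.76 between Ttc4 and Rasa4, 0.67 between Cd93 and Rasa4, 0.65 between Ttc4 and Hnmt, 0.60 between Cd93 and Hnmt and 0.45 between Cd93 and Ttc4. These values share the genotype difference that the members were chosen for, and the arrays. With each group's mean taken out they were between -0.49 (Cd93 and Ttc4) and 0.50 (Ttc4 and Rasa4). For the knockout differences within the 7 pairs, r lay between -0.05 (Cd93 and Hnmt) and 0.90 (Cd93 and Rasa4). Genes most like each member over the 14 arrays, by Pearson r, were mostly different ones. For Cd93 they were Lats2 (0.91), a kinase of the Hippo pathway, Limd2 (0.88) and Usp11 (0.87), a deubiquitinase. For Ttc4 they were Usp24 (0.89), another deubiquitinase, Leng1 (0.88) and Pms2 (0.87), a mismatch repair protein. For Hnmt they were Map2k6 (0.92), a kinase that activates p38, Fndc3a (0.90) and Cmtm7 (0.90). For Rasa4 they were Vipas39 (0.91), Elovl5 (0.90), a fatty acid elongase, and Myb (0.89), a transcription factor of progenitors. Average knockout differences of these 12 genes lay between -0.77 and -0.22. None passed, although Usp24 did with pairs as blocks (limma adjusted p = 0.00797). The 12 were picked for likeness to members chosen for a fall, so lower values follow in part from that choice. The probe sets of Lats2, Limd2, Usp24, Vipas39, Elovl5 and Myb may also bind other transcripts.

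The genes of the families and pathways listed around the members were mostly near 0. Of 62 tested genes in 5 lists other than the members, 0 rose and 0 fell on average by limma, and 2 were higher and 2 lower at an unadjusted p of 0.05. By population 0.0697% of all genes passed in LT-HSC, 0.0697% in MPP and 0.0929% in myeloid progenitors, and 0 list genes did. The unadjusted shares were 6.61%, 2.65% and 1.02%, against 1 higher and 3 lower of the 62 in LT-HSC, 2 and 1 in MPP, and 0 in myeloid progenitors. With pairs as blocks 1 list gene fell on average, Thbd.

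Of 19 other group XIV lectins and complement-related genes 18 had a probe set and 13 were tested. Their median was 0.05 against -0.01 for all genes, and 5 were below 0. Thbd, thrombomodulin and a lectin of the same group, was at -0.87 ± 0.24 (adjusted p = 0.307). Cd55, which limits complement on the cell surface, was at 0.64 ± 0.20 (adjusted p = 0.455), and Igfbp7, a ligand of Cd93, at -0.27 ± 0.20 (adjusted p = 0.985). Around Ttc4, 25 of 30 other Hsp90 and Hsp70 chaperones and co-chaperones were tested, with a median of 0.10, and 2 were below 0. Hsph1, an Hsp70 exchange factor, was at 0.44 ± 0.16 (adjusted p = 0.630), Cdc37, which brings kinases to Hsp90, at 0.38 and Stip1, which links Hsp70 to Hsp90, at 0.28. None passed, while Ttc4 was at -0.92.

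Around Hnmt, 5 of 13 genes of histamine synthesis, transport, receptors and breakdown were tested, with a median of 0.09. Hdc, which makes histamine, was at 0.41 ± 0.40, the receptor Hrh2 at 0.17 and Aldh7a1 at -0.17, and none passed (adjusted p of 0.999 or higher). In myeloid progenitors 4 of the 5 were below 0 with a median of -0.11. Hdc ran there from 512.89 to 603.12 units in controls and from 244.6 to 454.69 in knockouts, with no overlap. Myeloid knockouts lay below controls for 3.09% of all genes after normalization. In MPP 2 were below 0, with a median of 0.39. In control cells Hdc lay at 1.66 and 7 units in LT-HSC, below the 40th percentile and far under its myeloid level. That log2 difference was -4.75 ± 0.67 (adjusted p = 9.87e-04) and passed in 21 of 21 alternatives. Hdc and Hnmt thus both lay lower in control LT-HSC than in myeloid progenitors, although only the Hdc difference passed. Around Rasa4, 9 of 12 other Ras GTPase activating proteins were tested with a median of -0.08, and 6 were below 0. Rasa3 was at -0.40 ± 0.12 (adjusted p = 0.447), Dab2ip at -0.34 and Rasa2 at -0.33. The 10 of 16 Ras proteins and exchange factors that were tested had a median of -0.02, with Rasgrp1 at 0.26, Sos1 at 0.23 and Mras at -0.19, and none passed. Between control LT-HSC and myeloid progenitors the only other list genes that passed were Cd55 (1.23 ± 0.34, adjusted p = 0.0443) and Hspa5, an endoplasmic reticulum chaperone (-0.87 ± 0.23, adjusted p = 0.0392), in 9 and 11 of 21 alternatives. Leaving out LT-HSC control 2, myeloid control 1 or any myeloid knockout array was enough to lose both.

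Chromosomal neighbours were examined after the values were seen, taking the 8 protein-coding genes on each side of a member in the gene order of RefSeq GRCm38.p6. Of these 64 genes 43 had a probe set and 23 were tested. At an unadjusted p of 0.05 2 were lower and 0 higher, against 2.87% lower and 3.19% higher over all genes. The other 21 lay between -0.23 and 0.32. This count depends on the width of the window, since Usp24, 1 of the 2, lay at its edge. Thbd is directly next to Cd93 on chromosome 2. Its intensity went from 263.47 to 53.63 units in LT-HSC pair 1 and from 140.62 to 52.57 in pair 2, control to knockout. In MPP it went from 60.86 to 30.61 and from 149.77 to 75.25 units. In myeloid progenitors it went from 175.79 to 168.26, from 204.21 to 130.64 and from 174.37 to 138.56 units. It was thus lower in 6 of 7 normalized pairs, with its largest differences in LT-HSC. Its myeloid groups did not overlap as intensities but did after normalization, where pair 1 differed by 0.04. On average it differed by -0.87 ± 0.24, which did not pass (adjusted p = 0.307) but did with pairs as blocks (0.0269), with 0.0269 to 0.627 over 22 alternatives. Nxt1, on the other side of Cd93, was at 0.03 ± 0.21.

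Usp24 lies 8 genes from Ttc4 on chromosome 4 and was also the gene most like Ttc4 over the arrays. Its intensity went from 432.27 to 188.47 and from 734.4 to 384.38 units in the LT-HSC pairs and from 323.87 to 154.75 and from 484.04 to 334.52 units in the MPP pairs. In the myeloid pairs it went from 442.91 to 218.03, from 414.99 to 258.56 and from 612 to 399.28 units. All 7 knockout arrays were below their littermates, and the average was -0.77 ± 0.22 (adjusted p = 0.349, and 0.00797 with pairs as blocks), with 0.00797 to 0.646 over 22 alternatives. Its probe set may also bind other transcripts. Pars2, next to Ttc4, was at -0.13 ± 0.17, and the other 4 tested neighbours of Ttc4 were between -0.06 and 0.16. The 4 tested neighbours of Hnmt lay between -0.20 and 0.05, and the 10 of Rasa4 between -0.23 and 0.32, with Polr2j, next to Rasa4, at 0.07.

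**Figure D4:**
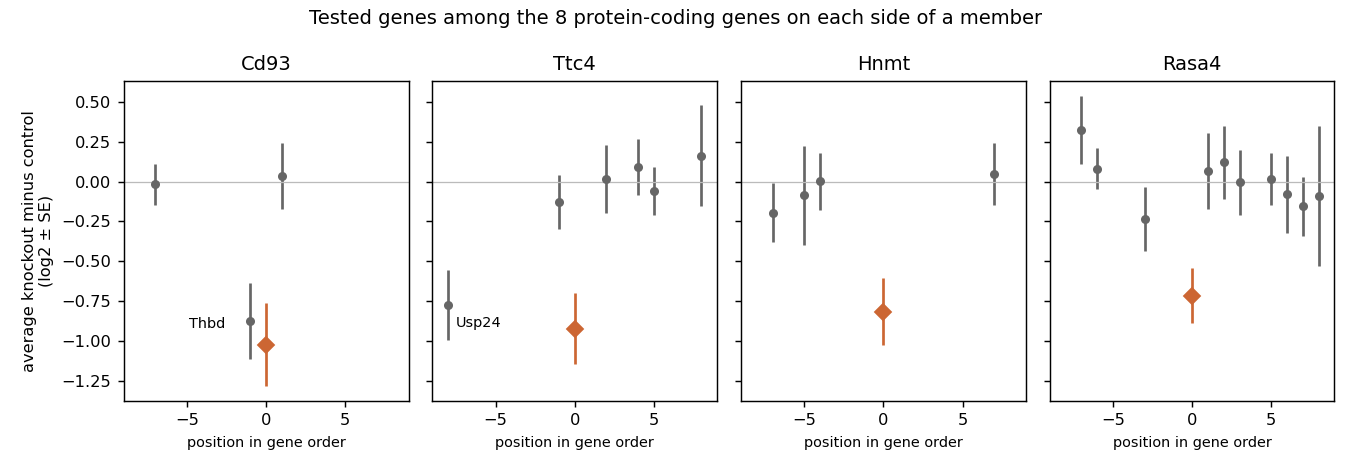
Average knockout minus control difference (log2, with SE) of tested genes by position in gene order around each member, which sits at position 0 as a diamond. Thbd beside Cd93 and Usp24, 8 genes from Ttc4, lie near the members' values, and the other 21 neighbours lie between -0.23 and 0.32.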

How the data were processed

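Per the labels' protocols, WT-Ovation Pico amplified the RNA of sorted pools before biotin labelling. The deposited values are linear intensities, 0.73 to 19239.08, 1 per probe set and array. Their summarisation and scaling are not stated in the labels, and arrays have no depth, so their number limits precision. Of 22690 probe sets, 64 controls were left out, 20380 had 1 gene symbol, 691 several and 1555 none. Values were taken as log2(intensity + 16) and quantile normalized. A probe set was kept when 2 or more arrays had it above their 40th percentile, and the brightest was used per gene, which left 8612 genes. All 4 members passed. limma 3.58.1 (R 4.3.3) fitted 6 group means and a trend of variance on mean (8 residual degrees of freedom, and 5.39 prior ones in the median gene). Two-sided p-values were adjusted by Benjamini-Hochberg over the 8612 genes, with a threshold of 0.05. The fit was run on simulated data with planted changes larger than those of the members and with no link between littermates. Its accuracy for differences of the members' size was not tested. P-values describe pools, not mice.

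Same-numbered arrays came from littermates, per the labels, and their deviations correlated with r of 0.46 in LT-HSC, 0.60 in MPP and 0.20, 0.54 and 0.61 in myeloid progenitors. A fit with pairs as blocks had 4 residual degrees of freedom and is printed only beside calls or counts that it moves. Members and gene lists were chosen with earlier results of these data known. Genes named were the members, list genes past the threshold or else the 3 with the smallest average p, the 3 genes most like each member, Dnmt1 and sorting markers. Thbd and Usp24 as neighbours, and Aktip, Rdm1, Gata1, Klf1, Flt3, Procr and Hlf, were chosen after their values were seen. Alternatives changed the constant, normalization, filter, probe set choice, trend, block and each array. Figures used Python 3.11.15, numpy 2.4.6, pandas 2.3.3 and matplotlib 3.10.9.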

Additional observations from a re-analysis of the deposited data

How the results depend on the processing

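Over 24 alternatives the direction of each member's knockout difference was kept in 372 of 372 recomputed values, but its size was not. The members were chosen for this direction on the same arrays. Changing only the trend or the block does not alter a difference, so nothing is read from this count. A filter on all 14 arrays left 6131 genes and only Cd93 of the members. Counts of genes passing moved more. The average count of 20 was 8 under that filter and 69 with the replicate block of littermate pairs, and 12 to 57 without 1 array. The LT-HSC count of 6 was 0 under the filter, 20 with the replicate block, 0 without both arrays of LT-HSC pair 1 (added after the data were seen, as these arrays had high Gapdh ratios), and 0 to 73 without 1 array. The MPP count of 6 was 1 with a constant of 64, 3 without normalization, without a filter or with the mean of probe sets, 2 without the trend, 0 under the strict filter, 13 with the replicate block and 0 to 8 without 1 array. The myeloid count of 8 was 0 with a constant of 64, 2 under the strict filter, 13 with the replicate block, 5 without LT-HSC pair 1 and 1 to 13 without 1 array. Control counts of 201, 555 and 7 became 105, 299 and 3 under the strict filter and 118, 307 and 34 without LT-HSC pair 1. The last was 3 with a constant of 64 and 24 with the mean of probe sets. Without 1 array they ran from 78 to 408, 199 to 725 and 0 to 184, and the interaction counts from 0 to 1.

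Among control populations, the sign of small member differences turned. With the mean of probe sets Ttc4 in LT-HSC against myeloid progenitors was -0.055 and Cd93 in MPP against myeloid progenitors 0.17. Without 1 array, LT-HSC against MPP ranged from -1.19 to 0.37 for Cd93, -0.057 to 0.43 for Ttc4 and -0.61 to 0.10 for Rasa4. LT-HSC against myeloid progenitors ranged from -1.20 to 0.35 for Cd93 and -0.17 to 0.32 for Ttc4. MPP against myeloid progenitors ranged from -0.29 to 0.15 for Cd93, -0.28 to 0.057 for Ttc4, -0.63 to 0.064 for Hnmt and -0.69 to 0.023 for Rasa4. Interactions turned too. LT-HSC against MPP was -0.024 for Cd93 with the mean of probe sets, and -0.13 for Hnmt and -0.18 for Rasa4 with a constant of 1. Without 1 array it ranged from -0.46 to 1.10 for Cd93, -0.93 to 0.022 for Ttc4, -0.29 to 0.59 for Hnmt and -0.35 to 0.36 for Rasa4. LT-HSC against myeloid progenitors was 0.25 for Cd93 and 0.42 for Hnmt without LT-HSC pair 1, and 0.12 for Hnmt with a constant of 64. Without 1 array it ranged from -1.09 to 0.46 for Cd93 and -0.54 to 0.34 for Hnmt. MPP against myeloid progenitors ranged from -0.47 to 0.19 for Ttc4, -0.60 to 0.10 for Hnmt and -0.70 to 0.021 for Rasa4. The causes were not tested. The block cannot be fitted to differences between populations, which no pair spans. Among the list, marker and neighbour genes named, the replicate block changed the average calls of Thbd, Usp24 and Klf1 only.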
